A study of Mus musculus with 10 samples.

Results

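The regions described here are narrow stretches of IKZF2 CUT&RUN signal that lie deep inside long genes. They are regions of 300 bp or narrower whose midpoint fell inside the mm10 span of a protein-coding RefSeq gene and whose nearest base was more than 10 kb from both ends of every protein-coding gene. Autosomes were used, leaving out chromosome 4 from 3 to 60 Mb. The rule found 42399 regions, 28.1% of the 151133 regions of the series and 30.3% of the 139869 narrow regions on the chromosomes used. They lay in 6709 of 20665 autosomal protein-coding genes, and 42172 of them lay in 1 gene span while 227 lay in overlapping spans. Members were compared with 42414 narrow regions within 10 kb of a gene end and with 55056 narrow intergenic regions more than 10 kb from any gene end. Gene ends, here and below, are those of protein-coding genes.

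The cells were RN2 cells, a C57BL/6 mouse leukaemia with the MLL-AF9 fusion and NRASG12D. All had received a retrovirus carrying murine IKZF2 and RFP and had been sorted and kept in culture for 2 weeks. IKZF2 was thus added in every sample, and no sample had unmodified IKZF2. Signal of the added factor was not told apart from that of any IKZF2 of the cells' own. The anti-IKZF2 antibody was used for 6 samples, which are 3 libraries of 2 technical replicates each. The 4 samples with a control rabbit antibody, from the same cells, were not analysed here, so regions were compared only within the anti-IKZF2 libraries.

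IKZF2 (Helios) is one of the Ikaros proteins, zinc-finger factors that bind DNA and recruit chromatin remodelling and corepressor complexes, and it is best known for its roles in T cells and haematopoietic progenitors. Transcription factors bind both at gene starts and at distant enhancers, and in long genes introns hold many enhancers as well as the starts of shorter transcripts. CUT&RUN cuts DNA around an antibody-bound factor with a tethered nuclease, which also releases some fragments from accessible chromatin that the factor does not occupy.

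The members with signal among the highest 10% of narrow regions in all 3 libraries included 10 that overlapped an annotated transcription start inside a gene, more than 10 kb from any protein-coding gene end. The windows of 6 of them are printed because members at such starts carried more signal than the other members. Each line holds RefSeq's 300 bases, 250 before the start and 50 after it, 5′ to 3′ on the strand of the gene, and the capitals mark the bases that the counted region covers. Coordinates are those of GRCm38.p6, which are the same as in mm10. Whether deposited region starts count from 0 or 1 is not stated, so the first or last capital may be off by 1 base. The windows are those of Prr5 (chr15:84680748-84681047, plus strand), Arhgap29 (chr3:121967556-121967855, plus strand), Arhgef3 (chr14:27335787-27336086, plus strand), Iffo2 (chr4:139574470-139574769, plus strand), Tnrc6b (chr15:80798360-80798659, plus strand) and Srgn (chr10:62507708-62508007, minus strand).
Prr5: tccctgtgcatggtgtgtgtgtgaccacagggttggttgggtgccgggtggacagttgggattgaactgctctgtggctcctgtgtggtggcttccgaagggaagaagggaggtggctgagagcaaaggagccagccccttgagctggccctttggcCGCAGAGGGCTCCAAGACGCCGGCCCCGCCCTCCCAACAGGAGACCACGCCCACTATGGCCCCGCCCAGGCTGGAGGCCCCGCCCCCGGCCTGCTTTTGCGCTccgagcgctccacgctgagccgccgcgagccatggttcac
Arhgap29: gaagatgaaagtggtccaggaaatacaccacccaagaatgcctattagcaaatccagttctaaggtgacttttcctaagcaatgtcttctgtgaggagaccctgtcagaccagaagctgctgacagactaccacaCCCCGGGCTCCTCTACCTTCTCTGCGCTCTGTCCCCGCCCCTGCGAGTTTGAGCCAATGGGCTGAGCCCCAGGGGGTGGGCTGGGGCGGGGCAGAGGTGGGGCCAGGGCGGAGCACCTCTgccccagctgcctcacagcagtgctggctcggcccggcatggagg
Arhgef3: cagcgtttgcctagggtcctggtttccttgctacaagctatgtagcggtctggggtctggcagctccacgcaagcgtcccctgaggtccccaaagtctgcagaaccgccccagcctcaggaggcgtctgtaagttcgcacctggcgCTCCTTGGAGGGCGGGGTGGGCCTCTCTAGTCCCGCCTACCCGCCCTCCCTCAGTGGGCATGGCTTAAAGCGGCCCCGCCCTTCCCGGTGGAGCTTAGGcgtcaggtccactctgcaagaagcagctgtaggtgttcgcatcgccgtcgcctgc
Iffo2: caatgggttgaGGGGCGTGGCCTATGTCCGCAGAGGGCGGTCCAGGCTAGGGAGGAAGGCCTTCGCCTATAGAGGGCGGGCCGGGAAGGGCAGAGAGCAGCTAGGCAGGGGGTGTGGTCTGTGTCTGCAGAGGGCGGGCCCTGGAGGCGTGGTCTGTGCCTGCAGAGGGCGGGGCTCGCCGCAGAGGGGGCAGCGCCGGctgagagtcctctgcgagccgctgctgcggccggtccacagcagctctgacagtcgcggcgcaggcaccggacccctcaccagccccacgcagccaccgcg
Tnrc6b: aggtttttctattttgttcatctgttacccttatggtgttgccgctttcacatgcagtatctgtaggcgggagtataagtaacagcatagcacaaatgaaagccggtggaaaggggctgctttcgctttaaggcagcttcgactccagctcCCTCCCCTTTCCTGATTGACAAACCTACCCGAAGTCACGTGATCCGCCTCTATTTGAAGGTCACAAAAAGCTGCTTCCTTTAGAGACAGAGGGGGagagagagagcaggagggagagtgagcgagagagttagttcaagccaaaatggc
Srgn: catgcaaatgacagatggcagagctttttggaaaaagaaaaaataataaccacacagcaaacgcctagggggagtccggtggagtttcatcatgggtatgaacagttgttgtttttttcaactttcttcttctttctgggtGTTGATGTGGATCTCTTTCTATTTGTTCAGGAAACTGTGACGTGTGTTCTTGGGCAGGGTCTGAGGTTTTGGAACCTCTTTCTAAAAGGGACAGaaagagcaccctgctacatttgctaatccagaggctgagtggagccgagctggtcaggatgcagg

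The first 4 windows are rich in G and C, with 67%, 60.7%, 64.3% and 71.7% G or C, and they hold the GC box GGGCGG 3, 3, 4 and 4 times when both strands are read. The windows of Tnrc6b (48.7% G or C) and Srgn (45% G or C) hold no GC box. None of the 6 windows holds TGGGAA, the core of the motif that Ikaros family proteins recognise, although 25.6% of all 32851 RefSeq start windows hold it on 1 strand or the other. A match or its absence describes these letters alone.

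Depth was low. The samples held 1375495, 1296355 and 1755015 reads in regions in technical replicate 2 of libraries 1, 2 and 3, against 299742, 273896 and 326440 in technical replicate 1. Members took 26.0%, 25.6% and 26.2% of the reads of the 3 libraries once technical replicates were summed. The median member held 10, 9 and 12 reads per library, and its highest library held 49.5% of its scaled reads. Log2 CPM of members correlated at r = -0.11, -0.14 and -0.14 between pairs of libraries (Pearson, across 42399 regions), and at 0.14, 0.16 and 0.15 between the technical replicates of 1 library. Regions near gene ends, with a median of 10, 10 and 13 reads per library, gave 0.08, 0.05 and 0.06 between pairs of libraries. Why the values of members lay below 0 was not tested, and at such low counts they are given as no finding. The labels name no separate cultures behind the libraries, so SDs here may be technical. Signal is given below as CPM per kb, where CPM is the reads of a region relative to all reads of its library in regions, and kb is the width of the region.

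Members were spread thinly through the inner parts of genes. The 42399 members lay in 689.2 Mb of gene interior that could hold one, here called territory, which is 0.0615 per kb (exact Poisson 95% interval 0.0609 to 0.0621, counting error only) or 1 region per 16.3 kb. Counted over the whole spans of the 9228 genes with any territory, the density was 0.048 per kb. The density was 0.736 times that within 10 kb of gene ends (0.0835 per kb) and 1.28 times that of intergenic DNA (0.0479 per kb). Genes with a member had a median span of 69.0 kb, against 17.5 kb for all autosomal protein-coding genes, as the rule itself favours long genes.

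The density of members fell steadily with distance from the nearest gene end, as did that of intergenic regions. Between 10 and 20 kb from a gene end there were 0.0735 members per kb, against 0.0694 intergenic regions per kb at the same distance. Between 50 and 100 kb the values were 0.0621 deep inside genes and 0.0563 in intergenic DNA, and between 100 and 200 kb they were 0.0507 and 0.0485. From 200 to 500 kb both were 0.0357, and beyond 500 kb the density was 0.0238 deep inside genes and 0.0231 in intergenic DNA, with Poisson intervals that overlap (0.0214 to 0.0263 and 0.0225 to 0.0238). With intergenic DNA of the same distance as the base, members were 1.07 times as dense, in place of 1.28 times. Unmappable bases could not be removed from either territory without a genome sequence, and their part in these densities was not tested.

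**Figure D1:**
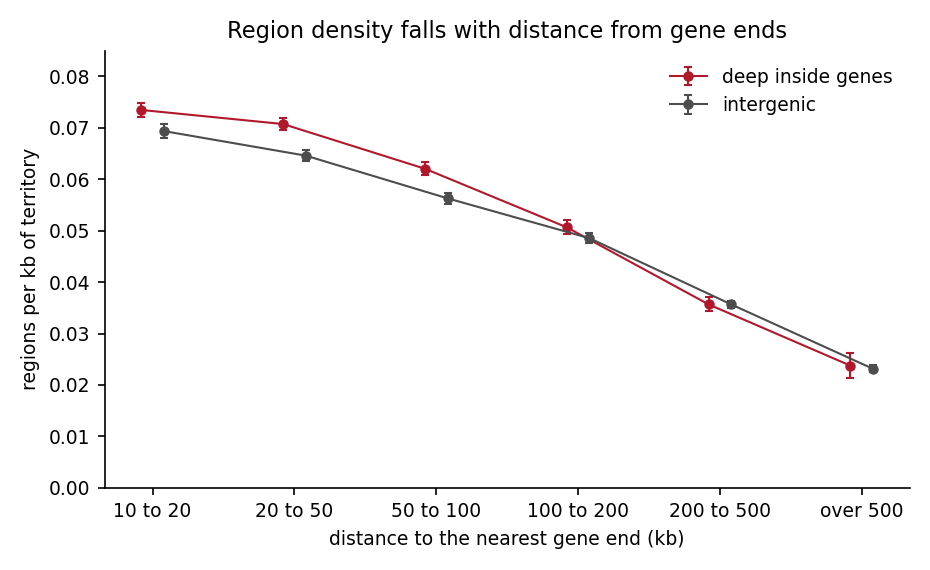
Regions per kb of territory (vertical axis) by distance to the nearest end of a protein-coding gene in kb (horizontal axis), for members deep inside genes (red) and intergenic regions (grey); bars are exact Poisson 95% intervals. Both fall with distance, to 0.0238 per kb for members and 0.0231 for intergenic regions beyond 500 kb.

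Along the gene the density differed modestly. In 612 genes with at least 200 kb of territory and a known strand, the 5 equal parts of the span held 0.0512, 0.048, 0.0469, 0.0493 and 0.0539 members per kb from the 5′ to the 3′ end. The part at the 3′ end was thus the densest (interval 0.0519 to 0.056) and the middle part the least dense (0.0451 to 0.0487). The outer parts lie nearer gene ends, and position was not separated from that distance. The median signal of members lay between 48.5 and 48.8 CPM per kb in all 5. Between chromosomes the density ran from 0.0556 per kb on chromosome 4 to 0.0714 on chromosome 17, and it was above the intergenic density of the same chromosome on every autosome used. These chromosome values were not matched for distance from gene ends.

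Pde4d, a cAMP phosphodiesterase gene at chr13:108654177-109955969, held the most members, 95 in 1282 kb of territory. Its density was 0.0741 per kb (95% interval 0.06 to 0.0906), which includes that of all genes. Arhgap26, a GTPase-activating protein, and Csmd1, a complement-control protein of neurons, held 64 each, at 0.0978 and 0.0404 per kb. Cntnap2, a neuronal cell adhesion gene, Dlgap1, a postsynaptic scaffold, and Nav2, a neuron navigator, followed with 63 each, at 0.0284, 0.0757 and 0.0998 per kb. Lrmda, Macrod2, Sdk1 and Ctnna3 completed the 10 genes with most members, with 62, 62, 61 and 56. Ctnna3 was tied with Wwox and Sox5. Cntnap2 and Macrod2 were sparser than the average gene over territories of 2221 and 1944 kb, while the intervals of Nav2 (0.0767 to 0.128 per kb) and Arhgap26 (0.0753 to 0.125) lay above it. The 86 genes with more than 800 kb of territory pooled to 0.0312 per kb. The intervals of Cntnap2 (0.0218 to 0.0363) and Macrod2 (0.0244 to 0.0409) include that density. The interval of Pde4d lies above it. All 10 of these genes were picked for their counts, which the intervals do not allow for.

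Pooled over genes, the density was lower in longer genes. Genes with up to 50 kb of territory held 0.0767 members per kb when pooled, genes with 200 to 400 kb held 0.0622 and the 86 genes with more than 800 kb held 0.0312. The median gene held 0.0463 per kb in the shortest class, 0.0708 at 100 to 200 kb and 0.0288 above 800 kb. Among genes with at least 200 kb, Prkag2, a regulatory subunit of AMP-activated kinase, was the densest at 0.152 per kb (34 members in 223.5 kb). Thada (0.148), Specc1 (0.146), Mical3 (0.144), Asap1 (0.141) and Zfp469 (0.138) came next. Etv6, an ETS family repressor needed for haematopoietic stem cells and a frequent target of translocations in leukaemia, held 29 members at 0.135 per kb. The intervals of these genes overlap one another, so their order is not settled: that of Prkag2 was 0.105 to 0.213 and that of Etv6 0.0906 to 0.194.

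The sparsest long genes held almost nothing. Pappa, a metalloproteinase that cleaves insulin-like growth factor binding proteins, held 1 member in 213.3 kb. Klhl1, a neuronal actin-binding protein, held 2 in 393.8 kb, Sema3e, a guidance ligand, held 2 in 211.4 kb, and Spock3, a matrix proteoglycan, held 4 in 386.1 kb. The predicted gene Gm4724 held 0 in 235.6 kb, which allows up to 0.0127 per kb (3 counts; exact two-sided upper limit 0.0157), and how much of it can be mapped was not tested. The upper limits of Pappa (0.0261 per kb) and Klhl1 (0.0183) lie below the density of all genes. Both were picked for being among the sparsest, which these limits do not allow for.

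**Figure D2:**
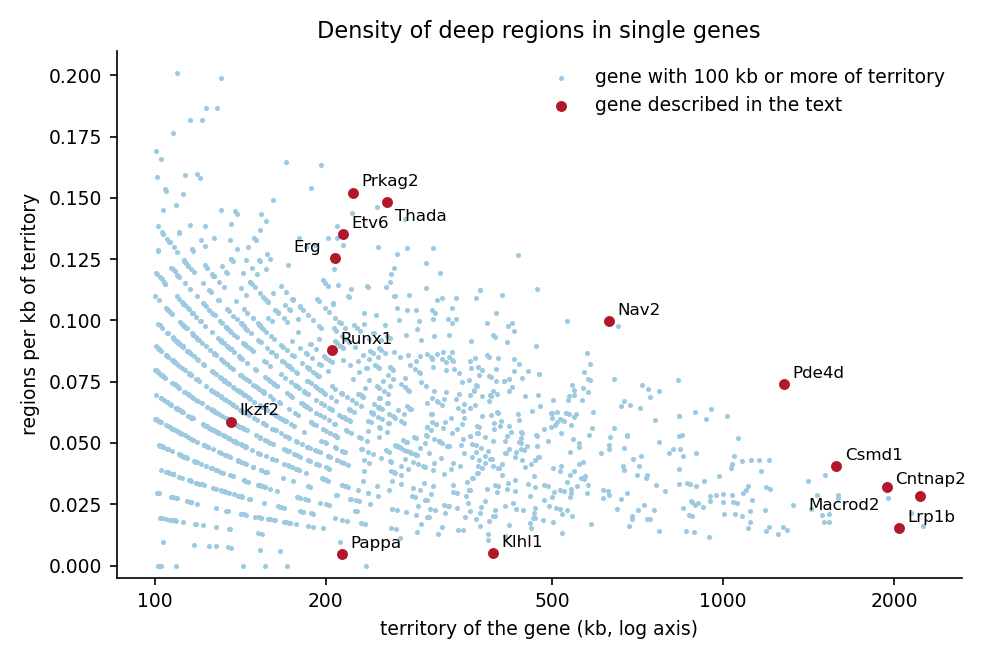
Members per kb of territory (vertical axis) against the territory in kb (horizontal log axis) for each gene with at least 100 kb of territory; some of the genes described in the text are red. Prkag2 at 0.152 and Thada at 0.148 stand at the top among genes over 200 kb, and Klhl1 and Pappa near 0 at the bottom.

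Gene lists by function differed widely in density. Genes of blood and leukaemia held 475 members in 6.81 Mb, 0.0698 per kb (interval 0.0636 to 0.0763), and 13 of 21 such genes with at least 100 kb lay above the median of all such genes (0.0622 per kb). Genes of chromatin and housekeeping held 0.0663 per kb, with 10 of 24 genes above that median. Genes of neuronal adhesion held 1003 members in 37.7 Mb, 0.0266 per kb (interval 0.025 to 0.0283), and 3 of 32 genes lay above the median. The blood list was thus 2.62 times as dense as the neuronal adhesion list, and 1.5 times as dense among genes with 200 to 800 kb of territory. Over all 9228 genes the density was 0.0615 per kb, and 866 of the 1732 genes with at least 100 kb lay above the median by definition.

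The other lists lay between. Intracellular signalling and scaffold genes held 0.0529 members per kb (7 of 26 genes above the median), ion channels and neurotransmitter receptors 0.0414 (6 of 28), muscle, matrix and epithelial giants 0.0404 (4 of 20), and common fragile site genes 0.0306 (1 of 16). Lists share genes: Csmd1, Cntnap2 and Lrp1b stand among both neuronal adhesion and fragile site genes. In scaled reads per Mb of territory, the blood list stood at 2.97, 3.13 and 2.87 times the neuronal adhesion list in libraries 1, 2 and 3, so each library gave the same order of these lists. The libraries share 1 set of regions, and this agreement is no independent count.

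**Figure D3:**
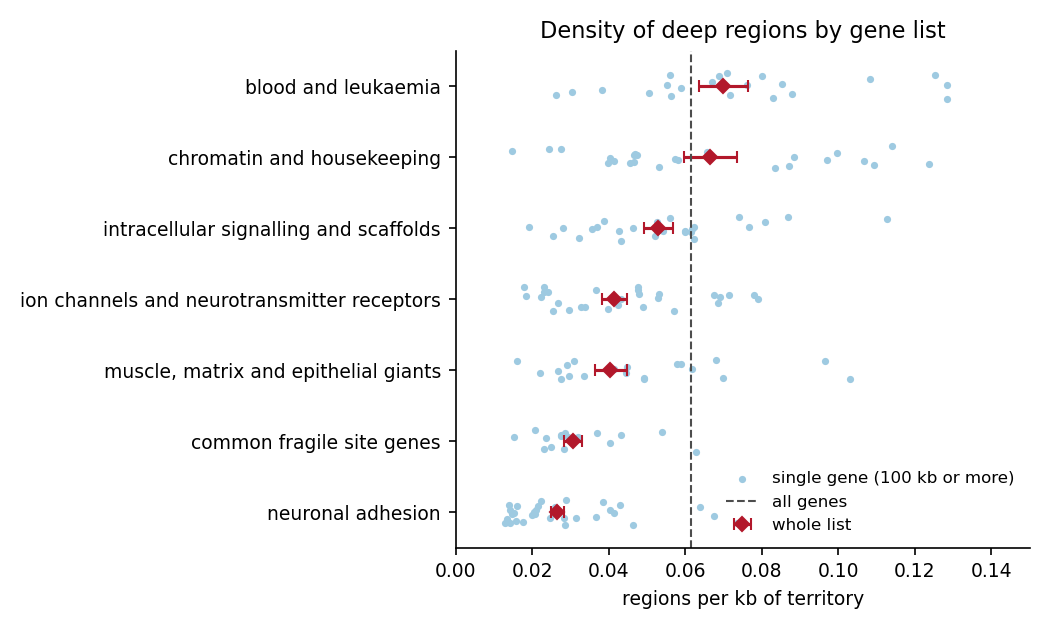
Members per kb of territory (horizontal axis) for the 7 gene lists (rows); diamonds are whole lists with exact Poisson 95% intervals, pale points are single genes with at least 100 kb of territory and the dashed line marks all genes (0.0615). Blood and leukaemia stands at 0.0698 and neuronal adhesion at 0.0266.

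The spread between lists was smaller in a narrower class of gene length. Among genes with 200 to 800 kb of territory, the 10 blood genes held 0.0655 members per kb and the 6 neuronal adhesion genes 0.0438, against 0.0566 in all 716 genes of that size. The 10 chromatin genes of that size held 0.0705 per kb and the 24 ion channel genes 0.0467. Single genes spread widely, from 0.0303 (Arhgap15) to 0.125 (Erg) in the blood genes and from 0.0143 (Lrrtm4) to 0.0736 (Tenm4) in the adhesion genes. The class does not make lengths equal. All genes of 200 to 400 kb held 0.0622 per kb and those of 400 to 800 kb 0.0491, and the part of length in the remaining spread was not tested. The strength of members differed far less than their density, though in the same direction: the median signal was 49.4 CPM per kb in the blood list and 47.6 in the neuronal adhesion list, against 48.9 in all members. Whether list densities follow transcription or accessibility in these cells was not tested.

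Within the blood list the densest genes with at least 100 kb were Fli1 (13 members, 0.128 per kb) and Plcg2 (15 members, 0.128 per kb). Fli1 encodes an ETS transcription factor of haematopoietic and endothelial cells, and Plcg2 a phospholipase that acts below immune receptors. Erg, another ETS factor of haematopoietic stem cells, held 26 members in 207.4 kb at 0.125 per kb (interval 0.0819 to 0.184). Ets1 held 11 at 0.108 per kb and Runx1, the core-binding factor subunit required for definitive haematopoiesis, 18 at 0.088 per kb. All of these exceeded the average density of genes, but the intervals of Ets1 (0.0541 to 0.194) and Runx1 (0.0521 to 0.139) include it. Fli1 and Plcg2 were picked as the densest of the list, which intervals do not allow for. At the low end Zeb2, a zinc-finger repressor, held 3 members in 113.9 kb, 0.0263 per kb, with an interval (0.00543 to 0.077) that also includes the average.

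The members of Erg were about as strong as other members, with a median of 49.4 CPM per kb against 48.9. Their mean signal ran from 36.9 to 67.3 CPM per kb, and 0 of the 26 ranked in the highest 10% of narrow regions in more than 1 library, as 1.04% of all members did. The region at chr16:95438950-95439049, for example, held 17 reads in technical replicate 2 of library 2, against 2 and 5 in that replicate of libraries 1 and 3, and 1, 0 and 0 reads in technical replicate 1 of libraries 2, 1 and 3. Its reads thus lay mostly in library 2. In Runx1 the highest mean, 87.2 ± 21.5 CPM per kb (SD, n = 3), belonged to chr16:92697390-92697493, with 75.3, 74.2 and 111.9 in libraries 1, 2 and 3. In Ets1 it was 76.2 ± 8.3 at chr9:32654489-32654682, with 68.0, 75.9 and 84.6, which are close to one another.

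Meis1, a homeobox cofactor that MLL fusions need, held 8 members at 0.0671 per kb, and its highest, at chr11:18924967-18925138, had 73.3, 126.6 and 56.2 CPM per kb in libraries 1, 2 and 3. Ikzf2 itself held 8 members in 136.1 kb of territory, 0.0588 per kb (interval 0.0254 to 0.116), and Ikzf1 held 5 in 68.0 kb, 0.0736 per kb (interval 0.0239 to 0.172). Both intervals include the average of all genes. The highest member of Ikzf2, at chr1:69675916-69676016, averaged 62.3 ± 4.17 CPM per kb (SD, n = 3), with 65.7, 63.7 and 57.7 in libraries 1, 2 and 3. Of the 13 members in these Ikaros family genes 0 ranked in the highest 10% in more than 1 library, a count too small to set against the 1.04% of all members. The gene table used gives spans and no exons, so exons and introns were not told apart.

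Members were on average weaker than regions near gene ends and about as strong as intergenic regions. Median signals were 47.3, 46.0 and 48.5 CPM per kb in members in libraries 1, 2 and 3, against 50.1, 50.4 and 50.9 near gene ends and 48.2, 45.9 and 48.6 in intergenic DNA. The regions near gene ends include many at annotated starts. Those at no start had medians of 48.5, 48.2 and 49.5, against 47.3, 45.9 and 48.5 in members at no start. That gap was smaller in each library (both sets without chromosome 18). Members minus regions near gene ends gave -3.21 ± 1.08 CPM per kb (SD, n = 3), lower in 3 of 3 libraries (exact two-sided sign-flip test p = 0.25, adjusted p = 0.375 over 6 such differences). With 3 libraries that test cannot go below 0.25. Members minus intergenic regions gave -0.296 ± 0.574 CPM per kb, smaller than its spread between libraries (exact p = 0.75, adjusted p = 0.9).

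Few members were strong in every library. Of members, 8.93%, 8.8% and 9.16% ranked in the highest 10% of narrow regions in libraries 1, 2 and 3 (mean 8.96 ± 0.181%), against 12.4 ± 1.07% near gene ends and 9.15 ± 0.592% in intergenic DNA (SD, n = 3). The difference from regions near gene ends was -3.43 ± 1.18 percentage points, lower in 3 of 3 libraries (exact p = 0.25, adjusted p = 0.375). That from intergenic regions was -0.185 ± 0.55 points (exact p = 1, adjusted p = 1). In all 3 libraries together 87 members ranked there, 0.205% of them, against 623 regions near gene ends (1.47%) and 114 intergenic regions (0.207%). Among regions at no annotated start the shares were 0.184% of members and 0.695% near gene ends. Most members, 31527 or 74.4%, ranked there in no library.

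Members at annotated starts inside genes were stronger than the rest. On the chromosomes with RefSeq start windows, 247 of 40951 members overlapped a window, 166 of them at a start of the gene that holds the member and 81 at a start of another gene alone, such as a noncoding or nested one. Their median signal was 56.9, 69.3 and 54.5 CPM per kb in libraries 1, 2 and 3 (mean 60.2 ± 7.96, SD, n = 3), against 47.3, 45.9 and 48.5 (mean 47.2 ± 1.32) in the other 40704 members. The difference was 13.0 ± 9.2 CPM per kb, higher in 3 of 3 libraries and largest in library 2 (exact p = 0.25, the smallest this test can give; adjusted p = 0.375). Without library 2 the mean difference was 7.78 CPM per kb. In the highest 10% of narrow regions ranked 20.6%, 30.0% and 17.4% of members at starts, against 8.88%, 8.62% and 9.11% of the other members (difference 13.8 ± 6.75 percentage points, exact p = 0.25, adjusted p = 0.375). The groups of library values did not overlap in either measure.

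**Figure D4:**
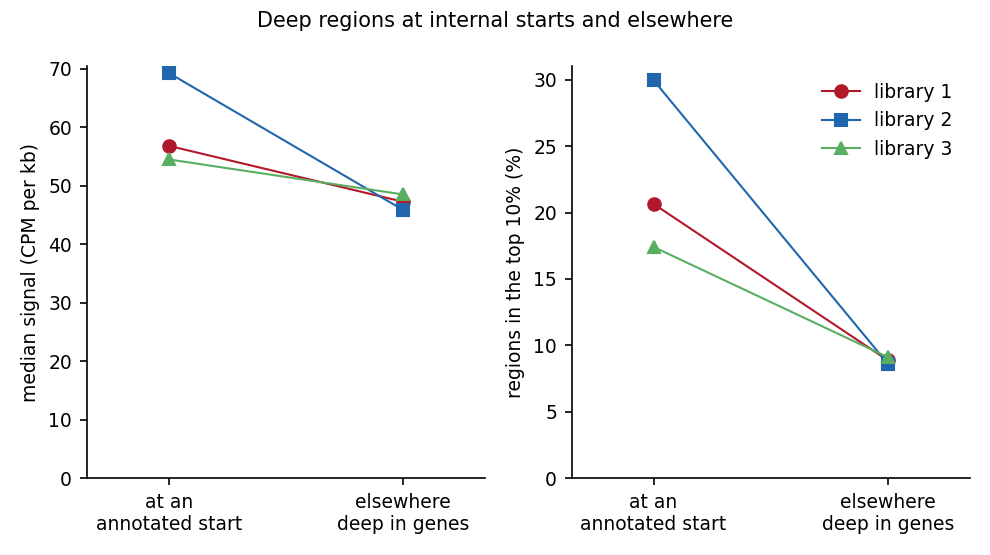
Median signal in CPM per kb (left panel) and the percentage of regions in the highest 10% of narrow regions (right panel) for members at an annotated start and for other members; each line is 1 of the 3 libraries. Members at starts lie higher in each library, with library 2 the highest at 69.3 CPM per kb and 30.0%.

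Starts were also more common among the strongest members. Windows wholly inside the territory held 0.242 member midpoints per kb (interval 0.21 to 0.277), against 0.0616 per kb in all territory of the same chromosomes, a ratio of 3.93. A member overlapped 274 of 3071 such windows, 8.92%. In the 10 deciles of mean signal, members at starts made up between 0.269% and 0.513% of the lower 9 and 2.81% of the highest, and 10.8% of the top 1% of members (44 of 409). The 10 starts among the members that ranked high in all 3 libraries made up 4.05% of members at starts, against 0.184% of the other members. Between libraries, log2 CPM correlated at 0.26, 0.28 and 0.29 across the 247 members at starts, against -0.11, -0.15 and -0.14 across the others, over regions that share depth and library. As for all members, the cause of these correlations was not tested and they are given as no finding. Starts were singled out after values were seen.

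Starts of the host gene carried more of this signal than starts of other genes. The median was 59.7, 76.5 and 57.6 CPM per kb at the 166 host gene starts, against 51.6, 54.0 and 47.9 at the 81 others, the last of which lies below the 48.5 of members at no start in library 3. Regions at starts within 10 kb of gene ends stood higher still, at 66.7, 79.6 and 65.9 CPM per kb over 3938 regions, so members at inner starts lay between them and the remaining members in each library. Library 2 had the highest value in each start set.

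The letters of the windows differed between strong and weak starts. The 44 windows with a member in the highest 10% in 2 or 3 libraries had a median of 60.3% G or C and 16.5 CpG dinucleotides per window, against 52.2% and 6 in the 144 windows whose members never ranked there, and 49% and 4 in the 2797 inner windows without a member. The GC box GGGCGG occurred in 52.3% of the strong windows, 29.2% of the weak ones and 18.2% of those without a member, against 35.7% of all windows. The Ikaros core TGGGAA occurred in 18.2%, 23.6% and 28.1% of the windows in these sets and in 25.6% of all windows. CCAAT occurred in 29.5%, 32.6% and 33.6% (37.4% of all windows), and the ETS motif CCGGAAG in 4.55%, 7.64% and 2.9% (8.86%). All motifs were sought on both strands, and none contains another. The base composition of the windows moves with signal, and its part in the difference was not tested. Cutting without the IKZF2 antibody was likewise not tested.

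The 10 strong starts lie in genes of many kinds. Prr5 encodes a subunit of mTOR complex 2, Arhgap29 a GTPase-activating protein and Arhgef3 a guanine nucleotide exchange factor. Tnrc6b encodes a scaffold of microRNA-mediated silencing, Srgn the proteoglycan serglycin of blood cell granules, Aim2 a sensor of cytosolic DNA, Pcca a subunit of propionyl-CoA carboxylase and Mlxipl a glucose-responsive transcription factor (ChREBP). The region in Srgn, at chr10:62507773-62507866, had 109.1, 95.9 and 134.3 CPM per kb in libraries 1, 2 and 3, and that in Tnrc6b, at chr15:80798511-80798605, had 127.0, 182.9 and 122.7. Being chosen for high rank in all 3 libraries, these regions are strong by selection. The member in Pcsk5 lay at the start of another annotated gene, Gm41812, and averaged 110.8 ± 7.47 CPM per kb (SD, n = 3).

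The member with the highest mean lay in Camk2b, the beta subunit of calcium/calmodulin-dependent kinase II, at chr11:6006282-6006568, 36.7 kb from the nearest gene end. It held 120, 126 and 119 reads in technical replicate 2 of libraries 1, 2 and 3, against 22, 40 and 44 in technical replicate 1. That gives 296.4, 369.6 and 273.8 CPM per kb (mean 313.3 ± 50.1, SD, n = 3), against a median of 48.9 over all members. The region ranked in the highest 10% in all 3 libraries but is not 1 of the 10 such members at starts, so it overlapped no annotated start window. Few members came near it: the 99th percentile of members was 83.5 CPM per kb.

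The start of Prr5, at chr15:84680905-84681007, followed with 50, 46 and 34 reads in the deeper technical replicate 2, against 6, 7 and 2 in technical replicate 1. Its signal was 327.7, 330.9 and 169.6 CPM per kb in libraries 1, 2 and 3, lowest in library 3. The start of Arhgap29, at chr3:121967691-121967810, had 225.7, 385.3 and 181.7 CPM per kb, and that of Arhgef3, at chr14:27335933-27336031, had 201.0, 318.4 and 166.7. Library 2 was the highest in both. In Iffo2, an intermediate filament family gene, library 2 was likewise the highest at chr4:139574481-139574668, with 105.3, 248.6 and 115.6.

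Apart from Camk2b and the starts of Prr5, Arhgap29 and Arhgef3, the 10 members with the highest mean lay in Tmtc2, Vwf, Sipa1l1, Ptpn5, Osbpl5 and Usp31. Like the region in Camk2b, these overlapped no annotated start window, so most of the 10 strongest members lay away from annotated starts. Vwf, the gene of von Willebrand factor, a clotting protein of endothelium and megakaryocytes, had 171.9, 270.0 and 184.5 CPM per kb at chr6:125573344-125573469. Ptpn5, a tyrosine phosphatase of neurons, had 206.6, 220.4 and 194.0 at chr7:47104176-47104332, the closest agreement of the 10 strongest members (mean 207.0 ± 13.2, SD, n = 3). Sipa1l1, a GTPase-activating protein for Rap, had 257.6, 160.9 and 207.3 at chr12:82225893-82225988, with library 1 the highest. Osbpl5, which encodes an oxysterol-binding protein, had 180.1, 296.5 and 103.5 CPM per kb. Ranked by the lowest library instead, Gfod1 joined this group with 162.4, 169.0 and 176.5 at chr13:43261376-43261523.

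**Figure D5:**
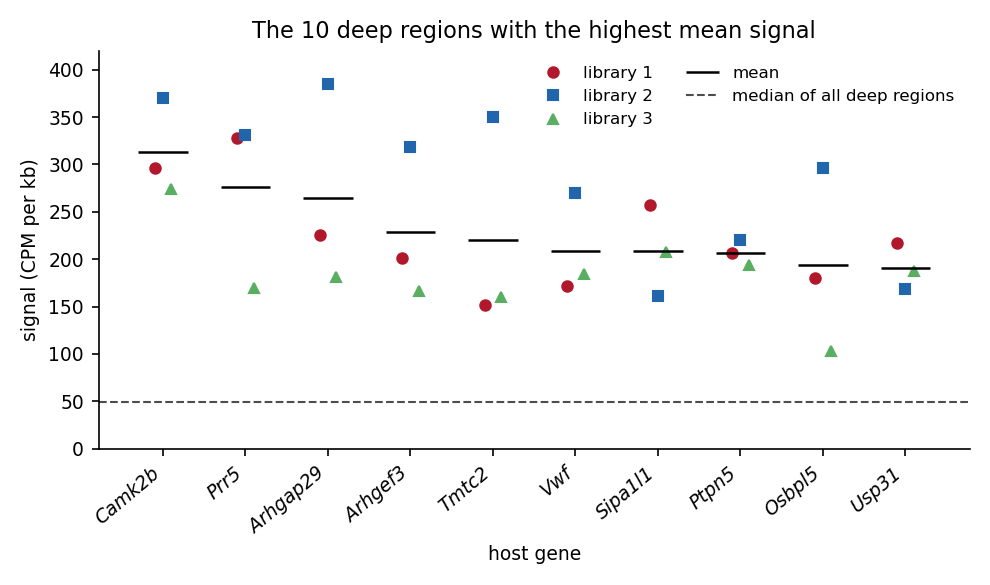
Signal in CPM per kb (vertical axis) of the 10 members with the highest mean, named by host gene (horizontal axis), in the 3 libraries, with the mean as a bar and the median of all members (48.9) as a dashed line. All values lie above that median, from 103.5 in Osbpl5 to 385.3 in Arhgap29.

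Technical replicates of the same library differed at few members. Of 42399 members 6047 passed edgeR's filter on low counts, and 8 of these (0.132%) differed between technical replicates 2 and 1, against 0.259% of all 27452 regions tested (edgeR quasi-likelihood test, Benjamini-Hochberg adjusted p under 0.05). After scaling for depth 2 were higher and 6 lower in technical replicate 2. The highest in that replicate lay in Fhad1 and in Inpp5d, a lipid phosphatase (SHIP1) that restrains signalling in blood cells. The member in Inpp5d, at chr1:87637662-87637945, held 46, 36 and 39 reads in technical replicate 2 of libraries 1, 2 and 3, against 2, 0 and 0 reads in replicate 1 (log2 fold 4.26 ± 0.89 SE, edgeR adjusted p = 0.00131). Usp31, one of the 10 strongest members, ran the other way, with 7, 2 and 20 reads in technical replicate 2, against 34, 28 and 24 in the shallower replicate 1 (log2 fold -3.42 ± 0.47 SE, edgeR adjusted p = 5.94e-10). Kif16b, Tmem45a2, Slc10a7, 2900092C05Rik and Chit1 held the other members lower in technical replicate 2. Without library 2, edgeR called 0 members of 4431 tested (112 at an unadjusted p under 0.05) and 0 of all 20751 regions tested. Without library 3 it called 0 members of 3440 (92 so), against 8 of all 17301 regions. Leaving out library 1 gave 1 member of 2712, against 18 of all 14407 regions. Calls thus fell across the whole table and not in members alone.

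Between libraries edgeR called 0 of 6047 members, against 0.0146% of all regions tested (4 of 27452). At an unadjusted p under 0.05 the test gave 273 of the members (4.51%) and 4.35% of all regions tested, and DESeq2 called 0 members as well. The spread used there is that of technical replicates.

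The rule's own limits fell in even stretches of the data. The 65 members 291 to 300 bp wide had a median signal of 41.3 CPM per kb, against 41.0 for the 73 regions of 301 to 310 bp that otherwise met the rule. The 698 members up to 10.5 kb from a gene end had a median of 49.9, against 49.2 for 702 regions inside genes at 9.5 to 10 kb. Members also overlapped 4 of 214 annotated microRNA hairpins that lie wholly in the territory, those of microRNA 340, 1968, 6541 and 7687 in Rnf130, Grtp1, Wdfy2 and Gse1, with mean signals of 44.6, 66.7, 47.1 and 41.5 CPM per kb. All members had a median of 48.9 CPM per kb, with 10th and 90th percentiles of 39.7 and 61.3. Only microRNA 1968 lay outside those percentiles, and there 147.0 CPM per kb in library 2 stood against 11.5 and 41.6 in libraries 1 and 3.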

How the data were processed

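For each of the 6 anti-IKZF2 samples the deposited files give a raw read count per region over 1 common set of regions, with no normalization by the authors. Per the submitters' processing notes, the build was mm10 and the tools included MACS2 and Bowtie2 2.3.3.1; the peak threshold and the samples used for calling are not stated by labels or file headers. Technical replicates were summed per library, scaled to CPM over all regions and divided by width. Poisson intervals are on numbers of regions and hold counting error alone.

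Gene spans came from a RefSeq table of GRCm38.p6 with 21887 protein-coding genes and no strand. Strand for the 5 parts of genes, and start windows, came from a RefSeq window table; chromosome 18 was not used in comparisons with start windows. Motifs were counted as exact letters. Regions were tested across the whole table with edgeR 4.0.16 (R 4.3.3; filterByExpr, TMM, glmQLFit, glmQLFTest, threshold 0.05 on adjusted p). Technical replicates were set against each other within library blocks, and libraries with a term for technical replicate. DESeq2 (1.42.0) was run beside it, and the test was tried on simulated data. The pairing comes from the labels, which give both technical replicates of a library the same CUT&RUN number; their log2 CPM (pseudocount 0.5) correlated at 0.14 to 0.16 over members. Set differences over the 3 libraries used exact two-sided sign-flip permutation tests, adjusted over 6 differences. The rest was done in Python 3.11.15 (matplotlib 3.10.9, numpy 2.4.6, scipy 1.17.1, pandas 2.3.3).

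Members, the 7 gene lists (180 genes) and the rule for named genes were chosen with earlier results of these data known. The rule names the 10 genes with most members, the 10 densest and 5 sparsest with at least 200 kb of territory, the 2 densest and the sparsest gene with at least 100 kb in each list, Ikzf2, Ikzf1, Runx1, Meis1, Erg and Ets1, and the genes of the 10 strongest members by mean and by lowest library and of up to 10 members called in each edgeR test. Some genes it names are not described. Members at starts, and the genes there, were singled out after values were seen.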

Additional observations from a re-analysis of the deposited data

Results flagged for a closer look

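Another 419 regions met every part of the rule except width, being wider than 300 bp, and stand outside the comparisons above. Their median signal was 42.5 CPM per kb, against 41.3 in members 291 to 300 bp wide and 48.9 in all members, most of which are narrower, and signal is divided by width. They are singled out because they are signal in data that the comparisons did not use, with no control antibody value beside them.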

How the results depend on the processing

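With a distance of more than 20 kb from gene ends the density was 0.0584 per kb and 53 members ranked in the highest 10% in all 3 libraries, and with a width of 200 bp or less the density was 0.0574 per kb, in place of 0.0615 per kb and 87. Members minus intergenic regions turned sign with technical replicate 2 alone (0.0874 CPM per kb) and without division by width (0.212 CPM), and ranged from -0.49 to 0.0342 CPM per kb with 1 library left out (0.0342 without library 1). The share of members in the highest 10% was 9.82% with technical replicate 1 alone and 9.4% without division by width, against 8.96%. The count of members ranked there in all libraries was 48 with technical replicate 1 alone, 343 without division by width, and 160 to 232 over the remaining libraries when 1 was left out, fewer libraries being required then. The lower signal than near gene ends kept its sign in 9 of 9 alternatives (-3.63 to -2.43 CPM per kb, and -0.372 CPM without division by width). Members at starts stayed above the others in 9 of 9 alternatives, chosen after seeing the data (2.3 in CPM, and 7.78 to 16.5 CPM per kb), with 7.78 without library 2, and the density of the blood list over the neuronal adhesion list was 2.5 to 2.62 when the distance, its base or the width changed, and 1.5 among genes with 200 to 800 kb of territory. Members called between technical replicates numbered 0 to 1 when 1 library was left out, against 8. Over all regions tested such calls numbered 0 to 18, against 71. Without the replicate block 9 of 1410 members tested were called, against 46 of all 9743 regions tested. Between libraries 0 members were called with and without the block. The cause of these changes was not tested. Depth limits single members, which held a median of 9 to 12 reads per library.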
